A study of Mus musculus with 8 samples.

Results

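Arginine is the shared substrate of 2 competing routes in macrophages (Mϕ). Nitric oxide synthase oxidizes it to nitric oxide, a microbicidal radical, and citrulline, which can be turned back into arginine, whereas the arginases split it into urea and ornithine, the precursor of the polyamines and of proline. Inducible nitric oxide synthase is a classical marker of Mϕ activated by bacterial products and interferon-γ, and arginase 1 of alternatively activated and tissue-repairing Mϕ. The 10 genes described here are Slc7a2 (the inducible transporter that brings arginine into the cell), Nos2 (inducible nitric oxide synthase), Gch1 (GTP cyclohydrolase 1, the rate-limiting enzyme for the synthase's cofactor tetrahydrobiopterin), Ass1 and Asl (argininosuccinate synthase and lyase, which rebuild arginine from citrulline), Arg1 and Arg2 (the cytosolic and the mitochondrial arginase), Odc1 (ornithine decarboxylase, the rate-limiting enzyme of polyamine synthesis), Srm (spermidine synthase) and Sat1 (spermidine/spermine acetyltransferase, which starts polyamine breakdown). They were chosen by name, with earlier results of these data known. All 10 were found among the 55359 genes of the deposited table and passed the filter on low values.

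Total RNA was sequenced from bone marrow-derived Mϕ (BMDMs) of wild-type C57BL/6 mice, cultured from bone marrow of adult animals of both sexes with M-CSF and GM-CSF (20 ng/mL each). Naïve Mϕ were left untreated (Ctrl) or received LPS (100 ng/mL) together with IFNγ (100 U/mL) for 6 h (LPS). Efferocytic Mϕ (Eff) had been kept for 16 h, at a 1:5 ratio and with 10 nM dimerizer, with dying NIH-3T3 cells, a mouse fibroblast line made to undergo apoptosis by a caspase-8 that the dimerizer activates. LPSEff samples had the same co-culture, were washed, and then received LPS/IFNγ for 6 h. CD45+ cells were taken from the cultures with magnetic beads before RNA isolation, and the labels do not mention dimerizer for the naïve groups. Each group had n = 2 samples, numbered 1 and 2. The labels do not say whether these were separate mice or cultures, so that p-values rest on a spread between these samples that may be technical. The tests used also draw on the spread of other genes, so that the SE of a gene is not its own replicate spread alone.

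The 8 samples held between 3481288 reads on genes (Ctrl 1) and 12020918 (Ctrl 2). Values are normalized counts, meaning reads on a gene divided by 1 size factor per sample, and 3 reads corresponded to between 1.73 and 5.71 normalized counts. All 12 Mϕ markers, Ptprc (CD45) and Adgre1 (F4/80) among them, were at or above 10 normalized counts in every sample, with a sum between 107318 and 163329. The sum of 22 fibroblast markers was 244 to 447 (Ctrl), 1045 to 1110 (LPS), 2977 to 5645 (Eff) and 7606 to 9341 (LPSEff). Most of the sum in LPS 1 and 2 was Col5a1 (410 and 305), Pdgfrb (246 and 245) and Fbn1 (141 and 146). Col1a1 was at 16.8 and 38.6 there, and Pdgfrb was lower in LPSEff (82.3 and 157) than in LPS. Of these markers, 19 were higher in Eff than in Ctrl and 17 higher in LPSEff than in LPS in both same-numbered pairs, and none was at or under 3 reads in all samples. Whether fibroblast RNA adds to any value below was not tested. In bulk samples, fewer cells of a type and less RNA per cell cannot be told apart. Of the other marker lists, 10 neutrophil markers summed to between 728 and 2649, with Retnlg at or under 3 reads throughout, and 10 lymphocyte markers to between 11.3 and 28.5, with Ncr1 and Klrb1c at or under 3 reads. The 7 dendritic cell markers summed to 2165 to 2922 (Ctrl), 8513 to 17213 (LPS), 1368 to 1768 (Eff) and 6886 to 6905 (LPSEff). Most of each sum was the single gene Ccr7, at 1839 and 2128 (Ctrl 1 and 2), 7649 and 14409 (LPS), 1151 and 1296 (Eff), and 6243 and 5720 (LPSEff).

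The main question for these genes was how LPS/IFNγ changed them and whether prior efferocytosis altered their levels or that change. A gene was called where limma, fitted over 16309 genes, gave a Benjamini-Hochberg adjusted p under 0.05. In naïve Mϕ, LPS/IFNγ raised 5 of the 10 genes, Nos2, Slc7a2, Arg2, Gch1 and Ass1, and lowered Srm. The same 6 genes were called in the same directions in efferocytic Mϕ. Over all genes tested, 24.0% were called in LPS vs. Ctrl (12.4% higher and 11.6% lower), and 19.7% in LPSEff vs. Eff (10.7% higher and 8.95% lower). The median log2 change of the 10 genes was 0.87 in naïve and 1.48 in efferocytic Mϕ, beside -0.01 and 0.01 over all genes tested.

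**Figure D1:**
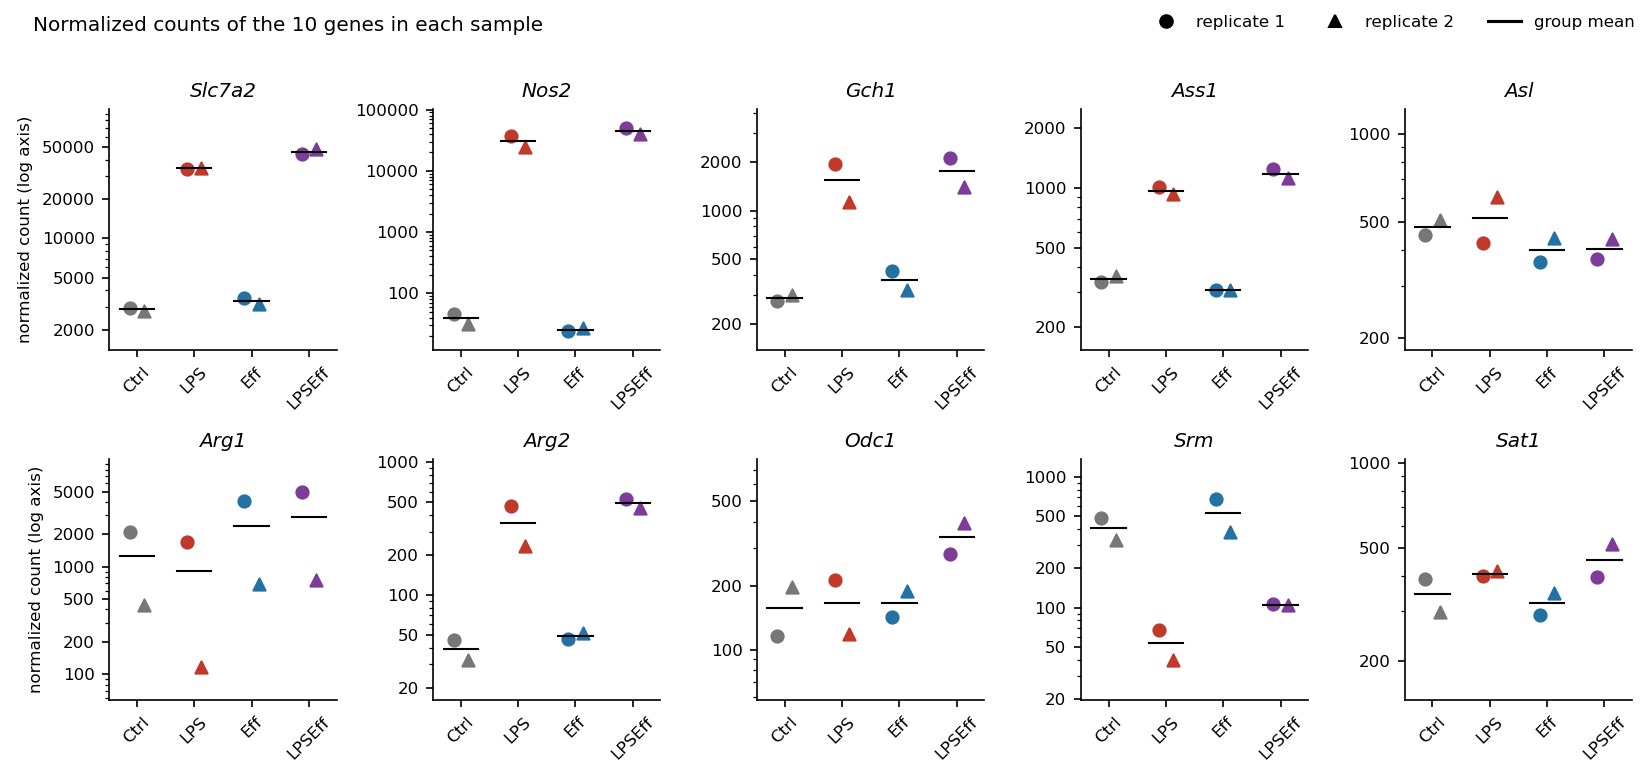
Normalized counts (log axis) of the 10 genes in each of the 8 samples, with circles for replicate 1, triangles for replicate 2 and a line at each group's mean (n = 2). The LPS and LPSEff samples of Slc7a2, Nos2, Gch1, Ass1 and Arg2, and by little those of the uncalled Sat1, all lie above the Ctrl and Eff samples. Those of Srm all lie below, and for Arg1 the replicate numbers are further apart than the groups. The share of all genes that separate in this way is not given.

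Slc7a2 (ENSMUSG00000031596, GRCm39 chromosome 8 from 41315431 to 41375345, + strand), which supplies the substrate, was already well expressed in unstimulated cells. Ctrl samples had 2932 and 2808 normalized counts (replicates 1 and 2, the order used throughout), Eff samples 3499.9 and 3176, LPS samples 34078 and 34670, and LPSEff samples 43952 and 48559. Stimulated and unstimulated samples did not overlap, and the replicates of a group lay close together, with a residual SD of 0.07 on the log2 scale. Slc7a2 rose by a log2 fold change of 3.58 ± 0.19 (SE) in naïve Mϕ (limma adjusted p = 3.11e-05) and of 3.79 ± 0.19 in efferocytic Mϕ (limma adjusted p = 1.79e-05). Per kb of exon it ranked 593 and 699 among 21627 protein-coding genes for Ctrl, 67 and 68 for LPS, and 52 and 54 for LPSEff.

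Nos2 (ENSMUSG00000020826, GRCm39 chromosome 11 from 78811613 to 78851080, + strand) had the largest change of the 10 genes. It was low in unstimulated cells, with 45.7 and 31.8 normalized counts in Ctrl samples and 23.7 and 26.8 in Eff samples. LPS samples had 37734 and 24545 and LPSEff samples 50428.5 and 39259. The unstimulated values rested on 24 and 55 reads in Ctrl and 27 and 38 in Eff, so that counting error alone makes the fold changes of Nos2 imprecise. The log2 fold change was 9.60 ± 0.27 in naïve Mϕ (limma adjusted p = 1.55e-06) and 10.73 ± 0.27 in efferocytic Mϕ (limma adjusted p = 9.37e-07), or about 778-fold and 1699-fold. Per kb of exon, Nos2 moved from rank 9298 and 10222 in Ctrl and 10558 and 10609 in Eff to rank 26 and 44 in LPS and 16 and 23 in LPSEff.

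Gch1 (ENSMUSG00000037580, GRCm39 chromosome 14 from 47391346 to 47426915, - strand), which makes the first committed step to the synthase's cofactor, rose with Nos2 but far less. Normalized counts of Gch1 were 276 and 301 for Ctrl, 427 and 322 for Eff, 1937 and 1137 for LPS, and 2109 and 1393 for LPSEff. The stimulated samples were all above the unstimulated ones, and replicate 1 was the higher of both stimulated pairs. The log2 fold change was 2.36 ± 0.31 in naïve Mϕ (limma adjusted p = 0.00124) and 2.21 ± 0.31 in efferocytic Mϕ (limma adjusted p = 0.00193).

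Ass1 (ENSMUSG00000076441, GRCm39 chromosome 2 from 31352181 to 31410862, + strand) and Asl (ENSMUSG00000025533, GRCm39 chromosome 5 from 130040099 to 130058088, - strand) catalyse consecutive steps from citrulline back to arginine, but did not share a response. Ass1 had 335 and 361 normalized counts in naïve unstimulated Mϕ (Ctrl) and 1006 and 934 in naïve stimulated Mϕ (LPS). In efferocytic Mϕ it had 306 and 307 without and 1243 and 1118 with LPS/IFNγ. Stimulated and unstimulated samples did not overlap, and the log2 fold change was 1.48 ± 0.17 in naïve Mϕ (limma adjusted p = 0.000671) and 1.94 ± 0.17 in efferocytic Mϕ (limma adjusted p = 0.000174). The pseudogene Gm5424 shares 21.5% of the 40-base stretches of Ass1 transcripts, so that some reads of either gene may have been left out or assigned to the other, and Gm5424 itself had between 21.9 and 45.7 normalized counts in unstimulated and between 78.2 and 132 in stimulated samples. For Asl, the normalized counts were 451 and 508 (Ctrl), 422 and 605 (LPS), 364 and 438 (Eff), and 373 and 435 (LPSEff). Its groups overlapped, and the log2 change with LPS/IFNγ was 0.08 (95% interval from -0.44 to 0.60) in naïve and 0.01 (from -0.51 to 0.54) in efferocytic Mϕ, neither called.

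RefSeq promoter windows, reaching from 250 bases before to 50 bases after an annotated start, were given for Ass1, Gch1, Odc1 and Sat1, and each matched GRCm39 at 1 place. The windows of Ass1 and Gch1 are printed because both genes rose with LPS/IFNγ in both contexts. Capitals mark matches to the motifs searched on both strands.
Ass1, chr2:31360032-31360331, + strand: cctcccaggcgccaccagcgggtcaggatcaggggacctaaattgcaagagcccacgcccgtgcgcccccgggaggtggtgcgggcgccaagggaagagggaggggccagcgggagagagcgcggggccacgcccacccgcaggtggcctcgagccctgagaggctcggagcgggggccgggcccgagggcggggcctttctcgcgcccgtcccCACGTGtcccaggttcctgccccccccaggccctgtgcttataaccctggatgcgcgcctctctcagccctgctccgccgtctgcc
Gch1, chr14:47426821-47427120, - strand: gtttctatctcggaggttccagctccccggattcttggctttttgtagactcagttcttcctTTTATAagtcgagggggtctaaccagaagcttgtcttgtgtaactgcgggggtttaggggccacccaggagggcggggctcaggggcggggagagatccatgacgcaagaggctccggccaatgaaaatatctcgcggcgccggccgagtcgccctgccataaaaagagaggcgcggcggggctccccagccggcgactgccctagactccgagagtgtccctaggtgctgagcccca
In the Ass1 window the capitals are an E-box (CACGTG), 36 bases before the start, and in the Gch1 window a TATAAA on the opposite strand, 188 bases before the start. The window of Odc1 held a κB-type match (GGGNNNNTCC) 159 bases before the start, and that of Sat1 held none of the letters searched. Neither a GAS-type match (TTCNNNGAA) nor an interferon response type match (GAAANNGAAA) was found in these 4 windows. Of all 32851 windows, 7.15% held the E-box, 13.6% TATAAA, 19.2% the κB-type, 8.30% the GAS-type and 3.44% the interferon response type letters.

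The 2 arginases differed in their response. Arg2 (ENSMUSG00000021125, GRCm39 chromosome 12 from 79177524 to 79203075, + strand) was low without stimulation, at 45.7 and 32.4 normalized counts (Ctrl) and 46.4 and 51.5 (Eff). With LPS/IFNγ it reached 466 and 233 (LPS) and 527 and 452 (LPSEff). All stimulated samples were above all unstimulated ones, and the log2 fold change was 3.06 ± 0.34 in naïve Mϕ (limma adjusted p = 0.000648) and 3.29 ± 0.34 in efferocytic Mϕ (limma adjusted p = 0.000467). Arg2 shares 492 bases of exon with Vti1b on the opposite strand, and Vti1b stayed between 358 and 481 normalized counts in all samples. It also shares 116 bases with Gm48780, a long noncoding RNA on the opposite strand that was higher with LPS/IFNγ. Gm48780 had 9.52 and 1.73 (Ctrl), 6.13 and 2.82 (Eff), 50.4 and 29.4 (LPS), and 49.1 and 38.1 (LPSEff).

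Arg1 (ENSMUSG00000019987, GRCm39 chromosome 10 from 24791118 to 24803817, - strand) was the most variable of the 10 genes. The 4 samples numbered 1 had 2096 (Ctrl), 1711 (LPS), 4071 (Eff) and 4999.6 (LPSEff) normalized counts, and the 4 samples numbered 2 had 437 (Ctrl), 116 (LPS), 683 (Eff) and 759 (LPSEff). In every group the sample numbered 1 was the higher, by 4.80 times (Ctrl), 14.8 times (LPS), 5.96 times (Eff) and 6.59 times (LPSEff), and the groups overlapped. Arg1 shares 762 bases of exon with Gm36172, a long noncoding RNA on the opposite strand with at most 12.3 normalized counts in any sample. The residual SD of Arg1 was 2.07 on the log2 scale, above that of 99.8% of the genes tested, and 0.50 once the replicate number was fitted as a block. Without the block, the log2 change was -1.10 ± 1.45 in LPS vs. Ctrl (limma adjusted p = 0.647) and 0.22 ± 1.45 in LPSEff vs. Eff (limma adjusted p = 0.939), neither called. With the block, under which 41.2% of all genes were called in LPS vs. Ctrl, 7 of the 10 genes were called there, and Arg1 was lower after LPS/IFNγ in naïve Mϕ (limma adjusted p = 0.0117, and from 0.0117 to 0.994 over the alternatives). The fall was uneven, to 0.82 of the Ctrl value in replicate 1 and to 0.27 in replicate 2. The SE behind the call with the block was 0.29, below the residual SD of 0.50, because limma draws a gene's spread toward that of other genes.

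The same-numbered samples were treated as pairs because they deviated together across genes. The sum of the 7 dendritic cell markers was the higher in the sample numbered 2 of every group, from 6886 against 6905 (LPSEff) to 8513 against 17213 (LPS). Most of each sum was Ccr7, which in LPSEff was the higher in the sample numbered 1 (6243 against 5720). The Mϕ marker sum was the higher in the sample numbered 2 of every group, from 112466 against 113650 (Ctrl) to 112785 against 163329 (LPSEff). The lymphocyte marker sum, at most 28.5, was the higher in the sample numbered 1 of every group. The neutrophil marker sum was so in all groups but LPS, and the fibroblast marker sum in LPSEff only. The part of any of these lists in the Arg1 values was not tested.

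Of the 3 polyamine genes, Srm fell with LPS/IFNγ. Srm (ENSMUSG00000006442, GRCm39 chromosome 4 from 148675940 to 148681792, + strand) had 484 and 332 normalized counts in naïve and 685 and 378 in efferocytic Mϕ without stimulation. After stimulation these were 67.3 and 39.6 in naïve and 106 and 105 in efferocytic Mϕ. All stimulated samples were below all unstimulated ones, and Srm fell by 2.93 ± 0.36 on the log2 scale in naïve Mϕ (limma adjusted p = 0.00101) and by 2.26 ± 0.36 in efferocytic Mϕ (limma adjusted p = 0.00386). The level in LPS rested on 52 and 39 reads.

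Odc1 (ENSMUSG00000011179, GRCm39 chromosome 12 from 17594383 to 17601507, + strand), the entry to polyamine synthesis, had normalized counts of 116 and 197 (Ctrl), 212 and 118 (LPS), 142 and 188 (Eff), and 283 and 393 (LPSEff). The LPSEff samples were above all others, while the other 3 groups overlapped. Its log2 change was 0.06 (95% interval from -0.78 to 0.91) in LPS vs. Ctrl and 1.03 (from 0.18 to 1.87) in LPSEff vs. Eff, where the limma adjusted p was 0.0899. With the replicate block, 7 of the 10 genes were called in LPSEff vs. Eff, beside 37.0% of all genes, and Odc1 was the gene added (limma adjusted p = 0.0243, and from 0.0172 to 0.327 over the alternatives). The SE behind that call was 0.31, beside a residual SD of 0.50 for Odc1 with the block. Other genes, led by Gm7993 (7.99%), share 16.0% of the 40-base stretches of Odc1 transcripts, so that part of the reads of Odc1 may be missing from the count.

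Sat1 (ENSMUSG00000025283, GRCm39 chromosome X from 153996128 to 153999452, - strand) had normalized counts of 390.4 and 297 (Ctrl), 291 and 347 (Eff), 399.7 and 414 (LPS), and 395 and 518 (LPSEff). The stimulated samples were all above the unstimulated ones, by little, with a log2 change of 0.26 (95% interval from -0.26 to 0.77) in naïve and of 0.51 (from -0.01 to 1.02) in efferocytic Mϕ, neither called.

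**Figure D2:**
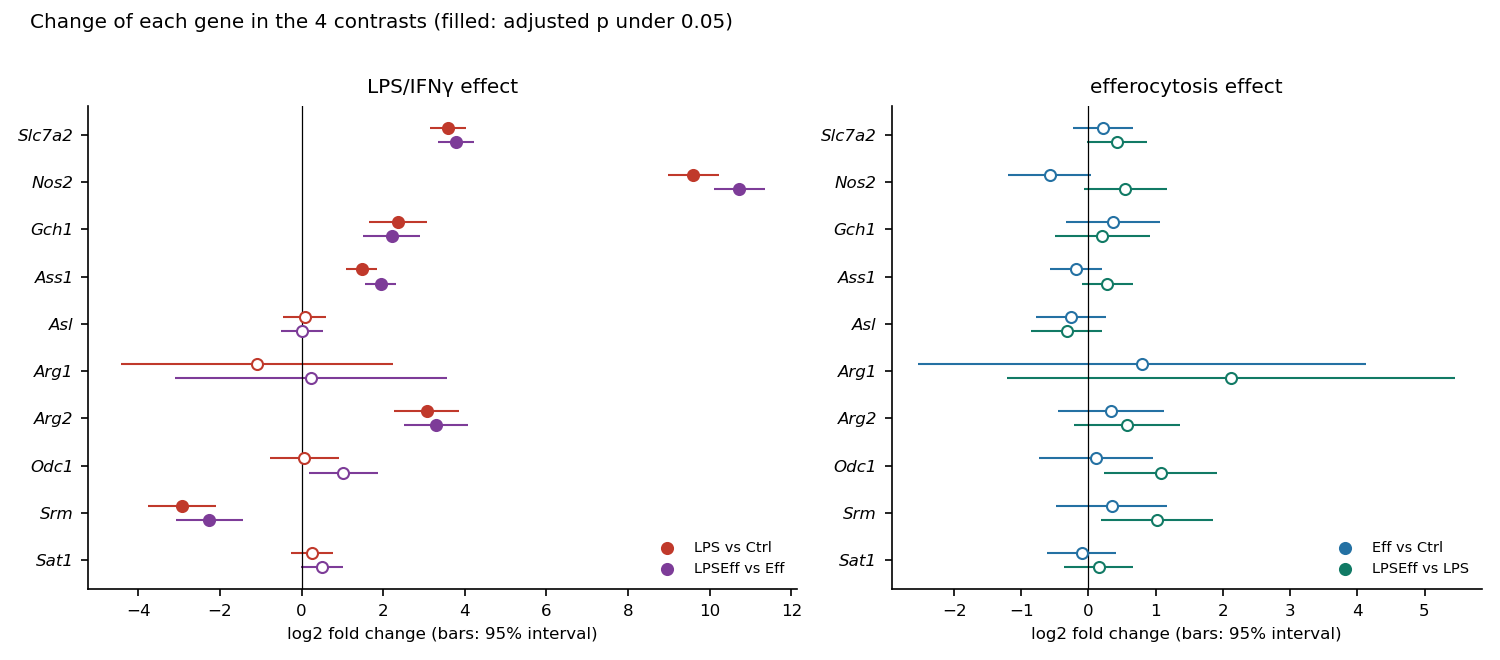
Log2 fold change of each gene with its 95% interval, for the LPS/IFNγ effect in naïve and efferocytic Mϕ (left) and for the efferocytosis effect in unstimulated and stimulated Mϕ (right). Filled points, adjusted p under 0.05, are on the left only, where Nos2 reaches 9.60 and 10.73 and Srm -2.93 and -2.26.

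Prior efferocytosis was compared next, without stimulation (Eff vs. Ctrl) and with it (LPSEff vs. LPS). In limma without the block, 0 of the 10 genes were called in Eff vs. Ctrl, where 0.251% of all genes were called, and 0 in LPSEff vs. LPS, where 0.773% were called. At an unadjusted p under 0.05, the counts were 0 of 10 in Eff vs. Ctrl and 2 of 10 in LPSEff vs. LPS (Odc1 and Srm), beside 6.13% and 10.3% of all genes. edgeR and DESeq2 without a block also called 0 of 10 in both. The log2 differences in Eff vs. Ctrl ran from -0.58 for Nos2 (95% interval from -1.20 to 0.04) to 0.80 for Arg1 (from -2.53 to 4.13). For Slc7a2 and Ass1, whose replicates lay closest together, these intervals were from -0.23 to 0.66 and from -0.57 to 0.20. Their SEs of 0.19 and 0.17 were above their own residual SDs of 0.07 and 0.08, since limma draws a gene's spread toward that of other genes.

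In stimulated cells, 8 of the 10 genes were higher in LPSEff than in LPS in both same-numbered pairs, and 32.7% of all genes tested were. Asl was lower in both pairs and Sat1 in 1 pair. Slc7a2 was 1.29 and 1.40 times as high in LPSEff as in LPS in replicates 1 and 2, Nos2 1.34 and 1.60 times, and Gch1 1.09 and 1.22 times. The differences were larger for Arg1 (2.92 and 6.51 times), Srm (1.57 and 2.62 times) and Odc1 (1.33 and 3.32 times). With the replicate block, under which 6.97% of all genes were called in LPSEff vs. LPS and 2.67% in Eff vs. Ctrl, 2 of the 10 genes were called in LPSEff vs. LPS and 0 in Eff vs. Ctrl. These were Arg1, with a log2 difference of 2.12 (95% interval from 1.48 to 2.77, limma adjusted p = 0.00236, and from 0.00236 to 0.994 over the alternatives), and Srm, with 1.02 (from 0.55 to 1.49, limma adjusted p = 0.0197, and from 0.0197 to 0.848). Each difference rests on 2 pairs. In limma the spread of a gene is drawn toward that of other genes. The SE with the block was 0.29 for Arg1 and 0.21 for Srm, beside residual SDs of 0.50 and 0.27. These intervals are thus narrower than the genes' own spread would give. Without 1 sample and without the block, neither gene was called, and the difference ran from 0.19 (without LPS 2) to 4.06 (without LPS 1) for Arg1, with 0.77 without LPSEff 1 and 3.48 without LPSEff 2, and from 0.64 (without LPS 2) to 1.39 (without LPS 1) for Srm. For Srm, the higher value in LPSEff was still 0.21 of that in Eff. The fibroblast marker sum moved with this contrast, from 1045 to 9341 in the samples numbered 1 and from 1110 to 7606 in those numbered 2. The dendritic cell marker sum moved the other way, from 8513 to 6886 and from 17213 to 6905, with 0 of its 7 genes higher in both pairs. Ccr7, most of that sum, went from 7649 to 6243 and from 14409 to 5720. The part of either list in these differences was not tested.

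Whether the LPS/IFNγ effect itself differed between naïve and efferocytic Mϕ was tested with an interaction term. It was called for 0 of the 10 genes in limma, edgeR and DESeq2 and in limma with the block, and 0.0% of all genes tested were called. At an unadjusted p under 0.05, limma had 1 of 10, beside 1.91% of all genes. This was Nos2, whose rise was 1.13 ± 0.38 larger on the log2 scale in efferocytic Mϕ (limma adjusted p = 1.00). This difference contains the low counts of unstimulated cells, since Nos2 was 0.53 and 0.85 times as high in Eff as in Ctrl in replicates 1 and 2.

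Levels of different genes were compared per kb of annotated exon. In Ctrl, Arg1 (396 ± 367 normalized counts per kb, SD, n = 2) and Slc7a2 (284 ± 8.68) were the highest of the 10 and overlapped each other. Below them by mean came Sat1 (124 ± 23.8), Srm (93.8 ± 24.7), Ass1 (93.2 ± 4.98) and Asl (72.0 ± 5.99), of which Sat1 and Srm overlapped, as did Srm and Ass1. Arg1 also overlapped Sat1, with 136.7 in Ctrl 2 against 140.4 for Sat1 in Ctrl 1. Gch1 (43.1 ± 2.60), Odc1 (27.7 ± 10.1), Arg2 (26.8 ± 6.47) and Nos2 (8.73 ± 2.21) were the lowest, and Odc1 and Arg2 overlapped. In LPS, Nos2 (7015 ± 2101) and Slc7a2 (3398 ± 41.4) stood above all others, followed by mean by Arg1 (286 ± 353), Ass1 (260 ± 13.6), Arg2 (239.9 ± 113) and Gch1 (229.7 ± 84.5), which overlapped. The place of Arg1 came from LPS 1, since in LPS 2 it had 36.2, below Sat1 (149) and Asl (90.8). Srm (12.3 ± 4.50) was then the lowest. In LPSEff the 2 highest were again Nos2 (10102 ± 1779) and Slc7a2 (4573 ± 322), ahead of Arg1 (901 ± 939). In LPSEff 2 alone, Arg1 (237.5) was below Arg2 (310.5) and Ass1 (299.2). The order within a group depends on the length used. All annotated exons span 3195 bases for Arg1 and 4349 for Srm, but the canonical transcripts span 1611 and 1358. For Arg2 both lengths are 1455 bases. With canonical lengths, Arg1 was 1.52 times Arg2 in LPSEff 2.

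The balance of the competing enzymes in RNA, not in protein or activity, is given as the ratio of Nos2 to Arg1, each per kb. It was 0.0157 and 0.0524 for Ctrl, 0.00418 and 0.0283 for Eff, 15.9 and 153 for LPS, and 7.26 and 37.2 for LPSEff. Every unstimulated sample was thus below 1 and every stimulated sample above. The ratio was lower with efferocytosis in each same-numbered pair, by 1.91 and 0.89 on the log2 scale without LPS/IFNγ and by 1.13 and 2.03 with it. The ratios are given as a description, with no test. Arg1 exceeded Arg2 per kb by 20.9 and 6.14 times in Ctrl and by 39.9 and 6.04 times in Eff. After LPS/IFNγ the ratio of Arg1 to Arg2 was 1.67 and 0.23 in LPS and 4.32 and 0.76 in LPSEff, so that the replicates fell on either side of 1. With the length of the canonical transcript in place of all exons it was 3.32 and 0.45 (LPS) and 8.56 and 1.52 (LPSEff), above 1 in both LPSEff samples, whereas the ratio of Nos2 to Arg1 stayed below 1 in every unstimulated and above 1 in every stimulated sample. The ratio of Odc1 to Sat1 was 0.15 and 0.33 (Ctrl), 0.26 and 0.14 (LPS), 0.24 and 0.27 (Eff), and 0.35 and 0.37 (LPSEff), with the LPSEff samples the highest.

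**Figure D3:**
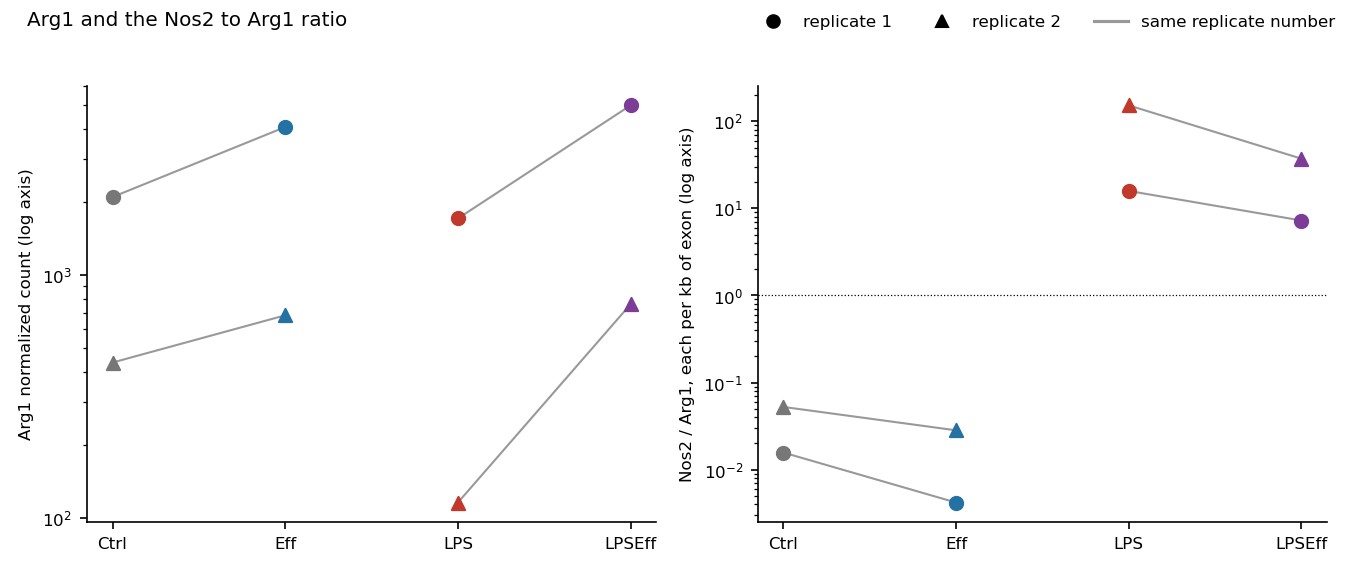
Arg1 normalized counts (left) and the ratio of Nos2 to Arg1 per kb of exon (right), both on log axes, with lines joining samples of the same replicate number without and with efferocytosis. Arg1 is higher with efferocytosis in all 4 pairs, up to 4999.6 in LPSEff 1, and the ratio is lower in all 4, with the dotted line marking a ratio of 1.

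The other genes of these routes were followed as 5 lists with 57 genes in all, of which 45 could be tested. With LPS/IFNγ in naïve Mϕ, 3 of the 45 rose and 10 fell, and in efferocytic Mϕ 3 rose and 5 fell. That is 28.9% and 17.8% of the 45 called, beside 24.0% and 19.7% of all genes tested. Their median log2 change was -0.42 and -0.21, beside -0.01 and 0.01 over all genes. With the replicate block the counts were 3 higher and 19 lower in naïve Mϕ, and 3 higher and 14 lower in efferocytic Mϕ, or 48.9% and 37.8% called beside 41.2% and 37.0% of all genes. After scaling to equal totals, 3 were higher and 19 lower in naïve Mϕ, and 2 higher and 16 lower in efferocytic Mϕ. Over all genes this scaling gave 8.71% higher and 26.5% lower in naïve Mϕ, and 7.46% higher and 26.7% lower in efferocytic Mϕ. Without 1 sample at a time, 1 (without Ctrl 1) to 3 rose and 4 (without Ctrl 2) to 10 fell in naïve Mϕ, and 1 (without LPSEff 1) to 3 rose and 1 (without Eff 1) to 9 (without LPS 1) fell in efferocytic Mϕ. The 3 genes that rose were the same in both contexts, Slc3a2, Azin2 and Smox. In the transport and nitric oxide list, Slc3a2, the heavy chain that partners several amino acid transporters, was the only one of 9 called, with 1574 ± 312 normalized counts (SD, n = 2) in naïve Mϕ before and 4935 ± 379 after LPS/IFNγ, and with 1963 ± 12.0 and 8171 ± 267 in efferocytic Mϕ.

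In the tetrahydrobiopterin list, where Gch1 itself is not counted, 2 of 4 genes fell in naïve Mϕ and none rose. They were Spr, sepiapterin reductase, which completes the cofactor (a log2 change of -0.80), and Qdpr, a reductase that regenerates it (-0.75). In efferocytic Mϕ limma called 0 of 4, with an adjusted p of 0.0531 for Spr and 0.0574 for Qdpr, and with the block both fell. The calls in naïve Mϕ were not firm, since leaving out 1 sample lost that of Spr in 7 of 8 fits (adjusted p up to 0.194) and that of Qdpr in 5 of 8 (up to 0.152).

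In the urea cycle, ornithine and creatine list, 1 of 10 rose and 2 fell in naïve Mϕ, and 1 rose and 1 fell in efferocytic Mϕ. Azin2, an antizyme inhibitor that protects ornithine decarboxylase from degradation, rose by 1.81 and 1.96 on the log2 scale. The genes that fell act in proline synthesis, namely Pycr3 (-1.44) in naïve Mϕ, and Aldh18a1 (-0.91 and -0.88) in both contexts. In the polyamine list, 1 of 11 rose and 1 fell in each context. Smox, spermine oxidase, went from 346 ± 118 to 927 ± 303 normalized counts in naïve and from 716 ± 109 to 1839 ± 289 in efferocytic Mϕ, and Atp13a2, a lysosomal polyamine exporter, fell by 1.12 and 1.10 on the log2 scale.

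The list of methionine salvage and hypusine genes is linked to Srm, because spermidine synthesis releases methylthioadenosine, which the salvage enzymes recycle. In naïve Mϕ, 5 of its 11 genes fell and none rose. These were Mtap, the phosphorylase of methylthioadenosine (log2 change -2.04), Mri1 (-1.73), Mat2a (-1.32), Adi1 (-1.29) and Enoph1 (-1.09). In efferocytic Mϕ, Mri1 (-1.73), Mat2a (-1.19) and Enoph1 (-0.99) fell. Of the 13 calls over the 5 lists in naïve Mϕ, 4 held without any 1 sample (Slc3a2, Mat2a, Mri1 and Atp13a2), and of the 8 in efferocytic Mϕ 2 did (Slc3a2 and Mat2a). Mtap was the one gene of the 45 called in LPSEff vs. LPS, with 278 ± 134 normalized counts in LPSEff and 53.5 ± 13.4 in LPS (log2 difference 2.29 ± 0.39, limma adjusted p = 0.0450), and this call was lost without any 1 of the 8 samples (adjusted p from 0.0573 to 0.314). In Eff vs. Ctrl 0 of the 45 were called by limma, edgeR or DESeq2 without a block. With the block, 6 of 45 were higher and 1 lower in LPSEff vs. LPS, or 15.6% called beside 6.97% of all genes.

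**Figure D4:**
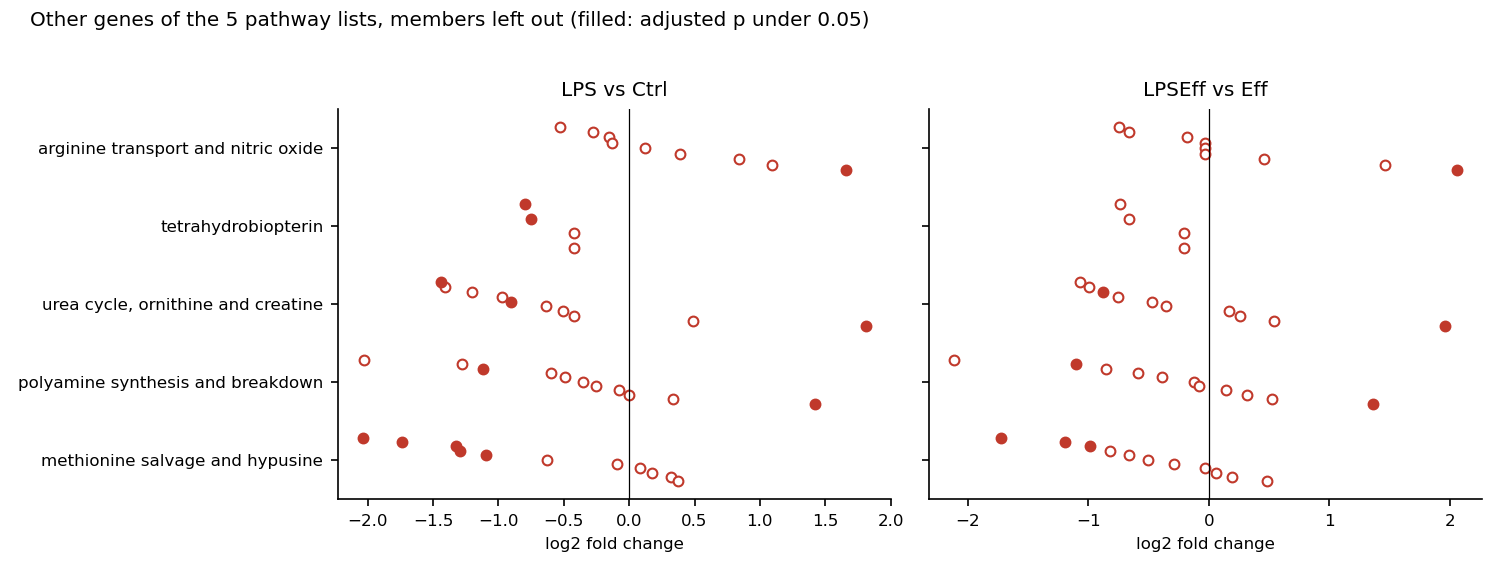
Log2 fold change with LPS/IFNγ of the 45 other genes tested, by list, in naïve (left) and efferocytic (right) Mϕ, with called genes filled (limma adjusted p under 0.05). In naïve Mϕ 3 filled points are to the right of 0 and 10 to the left, and in efferocytic Mϕ 3 and 5.

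Across the 8 samples, the genes whose log2 values followed Nos2 most closely were Psmb10, an immunoproteasome subunit (Pearson r = 0.999), Rsad2, an antiviral enzyme (r = 0.998), and Slc1a2, a glutamate transporter (r = 0.998). For Arg2 they were Csf3 (r = 0.996), U90926 (r = 0.996) and AA467197 (r = 0.994). Such values are easily reached by genes that differ between 4 stimulated and 4 unstimulated samples, and 763 genes were above 0.95 for Nos2 and 444 for Arg2. For Arg1, which followed the replicate number as well, only 13 genes were above 0.95, led by Rnd2 (r = 0.982), Gm11814 (r = 0.981) and Gm15590 (r = 0.972). These correlations share libraries and depth and are given as a description.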

How the data were processed

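After rRNA depletion and sequencing, the authors trimmed adapters (cutadapt), filtered out rRNA (bowtie2), aligned the rest to mm39 (STAR) and ran htseq-count in its default mode, which counts by strand and leaves out multiply mapped and ambiguous reads. Versions and the annotation release are not given in the sources used here. The deposited values are a signal per gene, in which the authors divided the reads on a gene by a size factor for the sample. Dividing by the smallest nonzero value gave whole reads for 100% of the values (tolerance 0.02). Of 55359 genes, 54749 were named from GENCODE M39 (GRCm39), which also gave exon lengths.

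Log2(normalized count + 1) of genes with a mean of at least 10 was tested in limma with a trend (limma 3.58.1 in R 4.3.3), with 4 group means in 1 fit of all 8 samples. Fold changes are on that scale, which understates changes of low genes. All adjusted p-values cover all genes tested. The variance of each gene was moved toward a trend over all genes, so that SEs and intervals do not show a gene's own spread alone. Same-numbered samples deviated together in all 6 pairs of groups (r from 0.404 to 0.595 across genes), so that the numbers from the sample names were taken to pair the samples, though no source says what they share. Alternatives were pseudocounts of 0.5 and 5, other filters, only the groups compared, the replicate block, equal totals, edgeR (4.0.16) and DESeq2 (1.42.0) on the recovered reads, and leaving out each sample. edgeR with the block, and canonical transcript lengths, were chosen after seeing the data. On simulated counts for LPS vs. Ctrl (16069 genes, 197 changed), limma recovered 126 of the changed genes, and 5.97% of its calls were false. The simulation gave all genes the same dispersion and held no replicate effect, so that these shares do not carry over to the real samples.

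The members, lists and tests were chosen with earlier results of these data known. Named genes are the 10 members, called genes of the 5 lists, without 1 gene in each of 2 lists that is not reported here (the 3 largest per list and contrast at least), and the 3 genes most like Nos2, Arg1 and Arg2. Promoter windows came from RefSeq (GRCm38.p6) and were located in GRCm39 by exact match.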

Additional observations from a re-analysis of the deposited data

How the results depend on the processing

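The counts of members called in LPS vs. Ctrl (6), Eff vs. Ctrl (0) and the interaction (0), and the directions of the 6 called members, held under every alternative run, except that the replicate block gave 7 in LPS vs. Ctrl (in limma and edgeR), and in LPSEff vs. Eff the block, DESeq2 and the fit of only the groups compared gave 7 and edgeR with the block 8. In LPSEff vs. LPS the block gave 2 members in limma and 2 in edgeR, in place of 0. The block changed no other call of a member in limma.

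Counts over all genes depended more on the setting. For the LPS/IFNγ effect in naïve and in efferocytic Mϕ, limma called 3910 and 3213 genes, with the block 6717 and 6033, and edgeR with the block 6663 and 6314. For the efferocytosis effect without and with stimulation, these counts were 41 and 126, with the block 436 and 1137, and in edgeR with the block 429 and 1233. For Eff vs. Ctrl the count was 79 without a filter, 20 at a mean of at least 50, 9 with only the groups compared, 14 in edgeR and 207 in DESeq2. For LPSEff vs. LPS it was 66 with only the groups compared and 368 in DESeq2. Scaling to equal totals moved the median gene to -0.40 in LPS vs. Ctrl and -0.44 in LPSEff vs. Eff, gave 5578 calls in the latter, and lowered the share of higher calls from 51.5% to 24.8% and from 54.6% to 21.8%. Under it the uncalled changes of Asl (-0.32), Odc1 (-0.34) and Sat1 (-0.14) in LPS vs. Ctrl and of Arg1 (-0.23) and Asl (-0.43) in LPSEff vs. Eff turned negative. With canonical transcript lengths, the mean log2 ratio of Arg1 to Arg2 in LPS turned from -0.70 to 0.29.

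Leaving out 1 sample gave between 2076 (without Ctrl 1) and 3562 calls in LPS vs. Ctrl, 1567 (without Eff 1) and 3407 in LPSEff vs. Eff, 0 (without Eff 2) and 45 in Eff vs. Ctrl, and 0 (without LPSEff 1) and 84 in stimulated cells (LPSEff vs. LPS). It turned the direction of uncalled members only. Arg1 ran from -3.04 (without LPS 1) to 0.84 (without LPS 2) in LPS vs. Ctrl, from -1.14 (without LPSEff 1) to 1.58 (without LPSEff 2) in LPSEff vs. Eff, and from -0.49 (without Eff 1) to 2.09 (without Eff 2) in Eff vs. Ctrl. In LPS vs. Ctrl, Asl ran from -0.18 to 0.34 and Odc1 from -0.36 to 0.48. In LPSEff vs. Eff, Asl ran from -0.12 to 0.15. In Eff vs. Ctrl, Odc1 ran from -0.27 to 0.49, Sat1 from -0.30 to 0.10 and Srm from -0.09 to 0.77. In LPSEff vs. LPS, Gch1 ran from -0.18 to 0.59 and Sat1 from -0.04 to 0.35. The causes were not tested. With 2 samples a group, and 24 to 55 reads of Nos2 in unstimulated samples, small differences could not be resolved.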
